A study of Mus musculus with 6 samples.

Results

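Smad proteins carry signals of the transforming growth factor beta (TGF-beta) family from receptors at the cell surface to the nucleus. The 7 genes described here are Smad1, Smad2, Smad3, Smad4, Smad5, Smad6 and Smad7. They were chosen by symbol, as every probe set whose only gene in the array's annotation was one of them. This gave 17 of the 45037 probe sets measured, and 7 of 18193 named genes. By role, 11 probe sets belonged to the 4 receptor-regulated Smads among these 7 genes, 3 to the common mediator Smad4 and 3 to the 2 inhibitory Smads.

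The study compared haematopoietic stem cells (HSCs) that kept a nuclear label with HSCs that did not. All 6 samples came from bone marrow of SCL-tTA H2B-GFP mice, in which the transactivator tTA-S2, expressed from the endogenous scl locus, drives a histone H2B-GFP fusion in stem and progenitor cells unless doxycycline is given. After 170 days of doxycycline, cells that were lineage-negative, Sca1+, cKit+, CD150+, CD48-negative and CD34-negative were sorted into GFP+ cells, called LRC (label-retaining cells), and GFP-negative cells, called non-LRC. Each group held 3 samples, which the labels call independent. The age and sex of the mice, and any pooling of animals, are not stated in the sources used here. Label is diluted by division, but a GFP-negative cell may also never have carried it, so the groups differ in retained label and not in a measured number of divisions.

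In this pathway an activated receptor phosphorylates receptor-regulated Smads, which then bind Smad4 and enter the nucleus. Smad1 and Smad5 mainly carry signals of bone morphogenetic proteins (BMPs), and Smad2 and Smad3 those of TGF-beta and activin. Smad6 and Smad7 block this step at the receptors and are themselves targets of the pathway, which makes them a negative feedback loop. TGF-beta is known for holding HSCs in quiescence, and much of the regulation of Smad proteins is by phosphorylation, which an RNA measurement does not show.

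Because inhibitory Smad genes are targets of the proteins that the other members encode, the DNA around the starts of members is shown for 1 inhibitory and 2 receptor-regulated genes. Each sequence runs from 250 bases before to 50 bases after an annotated start, taken from RefSeq on GRCm38.p6, and capitals mark matches to 3 motifs searched on both strands. These were the palindrome GTCTAGAC, its 4-base part GTCT (AGAC on the other strand), with which it overlaps, and GGCGCC, a GC-rich element bound by BMP-activated Smads.
Smad6 (chr9:64022010-64022309, minus strand): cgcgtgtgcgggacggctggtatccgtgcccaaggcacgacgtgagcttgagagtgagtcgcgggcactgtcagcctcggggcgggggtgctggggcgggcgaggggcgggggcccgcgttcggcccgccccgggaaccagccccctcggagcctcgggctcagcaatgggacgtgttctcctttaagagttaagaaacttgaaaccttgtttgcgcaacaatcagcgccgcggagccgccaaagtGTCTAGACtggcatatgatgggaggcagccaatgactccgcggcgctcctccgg
Smad1 (chr8:79399379-79399678, minus strand): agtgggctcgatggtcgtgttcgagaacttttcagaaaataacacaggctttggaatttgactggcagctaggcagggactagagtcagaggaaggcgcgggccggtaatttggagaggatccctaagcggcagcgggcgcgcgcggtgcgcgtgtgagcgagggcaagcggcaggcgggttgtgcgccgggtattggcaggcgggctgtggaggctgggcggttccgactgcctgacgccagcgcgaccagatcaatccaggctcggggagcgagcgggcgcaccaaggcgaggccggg
Smad3 (chr9:63757945-63758244, minus strand): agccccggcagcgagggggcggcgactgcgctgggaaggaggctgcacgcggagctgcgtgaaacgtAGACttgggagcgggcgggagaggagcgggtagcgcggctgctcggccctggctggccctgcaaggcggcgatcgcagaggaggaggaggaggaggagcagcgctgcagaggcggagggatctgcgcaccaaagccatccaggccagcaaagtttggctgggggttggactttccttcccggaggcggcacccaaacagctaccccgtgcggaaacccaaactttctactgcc

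The Smad6 window held GTCTAGAC once, with its first base at position -4 from the start, so that it spans the start itself. That palindrome was present in 0.213% of 32851 promoter windows of the same length. GTCT or AGAC was present in 88% of them, so the single match at position -183 of Smad3 and the absence of any match in Smad1 describe these windows and no more. GGCGCC, found in 11.9% of windows, was in none of the 3 shown. Windows were searched for 4 of the 7 members. In Smad5, whose table lists several starts, GGCGCC was matched at position 24 from the most upstream start. A match is a stretch of letters, and binding was not measured.

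Values are log2 expression after RMA, a procedure that corrects background, makes the distributions of single probes equal between arrays and gives 1 value per probe set. The resulting values still differed in distribution, with a 25th percentile from 2.82 on LRC replicate 2 to 3.02 on LRC replicate 1. Array medians lay between 4.33 and 4.39, and pairs of arrays correlated across probe sets at 0.901 to 0.970. The array of LRC replicate 1 stood apart, with correlations of at most 0.919. The hybridization controls, transcripts spiked in after amplification, averaged 11.2 on LRC replicate 1 and 11.0 on LRC replicate 3, against 10.6 to 10.7 on the other arrays. Both higher arrays were LRC, so these controls partly follow the group. A fit with them as a covariate can therefore also remove part of a group difference. Genes of the gate were measured too. Kit lay at 9.07 in LRC and 9.05 in non-LRC, Slamf1 (CD150) at 7.61 and 7.98 (a difference of -0.37, and 0.31 without LRC replicate 1), and Cd48 at 2.60 and 2.73, below the 25th percentile of the array on 5 of 6 arrays. Cd34, negative in the gate, averaged 4.86 and 6.55 and was above the array median on 5 of 6 arrays. Its LRC values were 2.52, 6.97 and 5.10, and its difference of -1.69 was -0.52 without LRC replicate 1 and 0.26 with the hybridization controls as a covariate. The mean level of 10 neutrophil and monocyte markers ran from 5.51 to 6.39 in LRC and from 5.99 to 6.91 in non-LRC, and for 7 megakaryocyte markers from 4.51 to 4.56 and from 4.36 to 5.31. Of 56 marker genes, 4 had groups that did not overlap, beside 8.32% of all genes: Hlf of stem cells, Ppbp of platelets, Hba-a1 of red cells and Col1a1 of stroma, each with a higher mean in LRC, by 0.20 to 0.38. Ppbp was below the 25th percentile of the array on all 6 arrays, Hba-a1 averaged 3.07, which is below the 40th percentile of all probe sets, and the 1 other probe set of Col1a1 had the opposite sign. In their lists, 5 of 7 megakaryocyte and platelet genes (median difference -0.27) and 4 of 5 erythroid genes (median -0.40) had a lower mean in LRC. A higher one was found for 5 of 7 stromal genes (median 0.20) and 4 of 6 stem cell genes (median 0.17). The other 2 stem cell genes were lower, 1 of them by as much as -1.49. Over all genes 45.1% had a lower mean in LRC. None of the marker lists had a member past an adjusted p of 0.05. Their part in the Smad values was not tested. In sorted bulk samples, fewer cells that express a gene and less RNA per cell cannot be told apart.

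No Smad gene differed between LRC and non-LRC beyond the threshold. Limma called 0 of the 17 probe sets at an adjusted p of 0.05, where it called 0% of all 45037, and adjusted p-values of the members ran from 0.998 to 0.999. At an unadjusted p under 0.05 it called 1 of 17, beside 3.71% of all probe sets. In 1 of 17 the 3 LRC values and the 3 non-LRC values did not overlap, beside 8.28% of all probe sets. These shares are near the background. The standard errors of the members ran from 0.20 to 0.53, with a median of 0.38 against 0.28 over all probe sets. The members are described below by role, as levels with their spread.

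**Figure D1:**
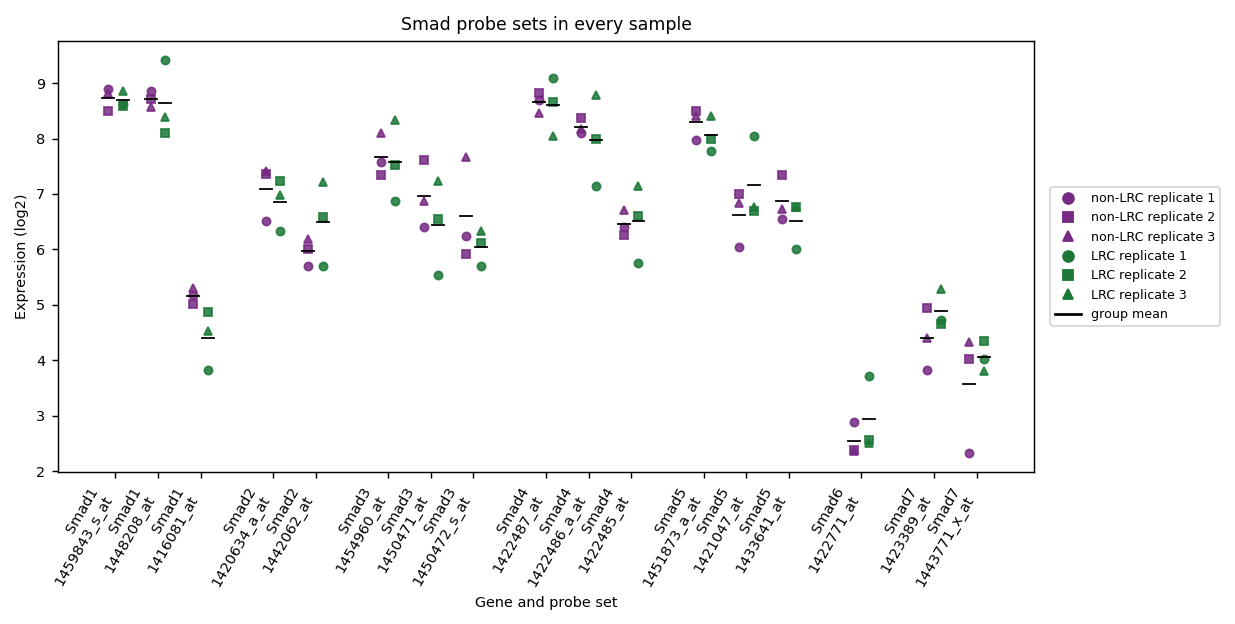
Expression (log2) of the 17 Smad probe sets in each of the 6 samples, with 1 symbol per replicate, colour for the group and a black bar for the group mean. The 14 receptor-regulated and Smad4 probe sets lie above 3.8 in every sample, and Smad6 lies below 3.8 in every sample.

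Smad1, a receptor-regulated Smad of BMP signalling, was measured by 3 probe sets. Its brightest, 1459843_s_at, read 8.90, 8.49 and 8.82 in non-LRC replicates 1 to 3 and 8.62, 8.59 and 8.86 in LRC. The groups overlapped almost completely, with a difference (LRC minus non-LRC) of -0.05 (SE 0.20, 95% interval -0.54 to 0.44). Its range over the 6 arrays, 0.41, was the narrowest of the 17. The suffix _s marks probes that can match more than 1 transcript.

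Smad1 probe set 1416081_at read 5.17, 5.01 and 5.31 in non-LRC and 3.82, 4.87 and 4.53 in LRC. Here the highest LRC value was lower than the lowest non-LRC value, the only such case among the members, as in 3.4% of all probe sets in this direction (the reverse order held for 4.88%). The difference was -0.76, a 1.69-fold lower level in LRC (SE 0.30, limma unadjusted p = 0.044, adjusted p = 0.998). It was -0.47 without LRC replicate 1, -0.27 with the hybridization controls as a covariate and -0.30 when LRC was represented by replicate 2 alone. The third probe set, 1448208_at, is listed with the same transcript, NM_008539, and read 8.86, 8.70 and 8.57 in non-LRC and 9.41, 8.11 and 8.39 in LRC. Its highest array, LRC replicate 1, was the lowest for 1416081_at. The 3 probe sets of Smad1 thus had the same sign of difference but not the same pattern over arrays.

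Smad5, the other BMP-activated member here, read 7.98, 8.49 and 8.40 in non-LRC and 7.77, 7.99 and 8.41 in LRC on its brightest probe set, 1451873_a_at. The groups overlapped, with a difference of -0.23 (SE 0.25, 95% interval -0.85 to 0.38). Probe set 1433641_at gave -0.36 (SE 0.32). Probe set 1421047_at had the opposite sign, at 0.54 (SE 0.45), with values of 6.05, 7.0 and 6.83 in non-LRC and 8.05, 6.69 and 6.76 in LRC. Its LRC mean rested on LRC replicate 1, and the difference was 0.10 without that array. On the other 2 probe sets of Smad5 the same array was the lowest of the 6.

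Smad2, a receptor-regulated Smad of TGF-beta and activin signalling, read 6.51, 7.37 and 7.41 in non-LRC and 6.34, 7.24 and 6.99 in LRC on its brightest probe set, 1420634_a_at. Replicate 1 was the lowest in both groups, and the groups overlapped. The difference was -0.24 (SE 0.35, 95% interval -1.10 to 0.62), and 0.02 without LRC replicate 1. The other probe set of Smad2, 1442062_at, read 5.70, 6.0 and 6.20 in non-LRC and 5.69, 6.59 and 7.21 in LRC, a difference of 0.53 (SE 0.40). The sign for Smad2 therefore depended on the probe set, and the mean of both gave 0.14.

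Smad3, the other TGF-beta and activin Smad, read 7.58, 7.34 and 8.11 in non-LRC and 6.88, 7.52 and 8.33 in LRC on its brightest probe set, 1454960_at. LRC held both the lowest and the highest of the 6 values. The difference was -0.10 (SE 0.41, 95% interval -1.10 to 0.90), and 0.25 without LRC replicate 1. The probe sets 1450471_at and 1450472_s_at, both listed with the sequence BI150236, gave -0.52 (SE 0.51) and -0.57 (SE 0.48). Their ranges of 2.07 and 1.98 were among the widest of the members. All 3 probe sets of Smad3 had a lower mean in LRC, and none separated the groups.

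Smad4, the partner that receptor-regulated Smads of both branches share, read 8.69, 8.83 and 8.45 in non-LRC and 9.09, 8.65 and 8.05 in LRC on its brightest probe set, 1422487_at. The difference was -0.06 (SE 0.30, 95% interval -0.79 to 0.67). LRC replicates 1 and 3 were the highest and the lowest of the 6 arrays. Probe set 1422486_a_at showed them the other way round, at 7.14 for LRC replicate 1 and 8.78 for LRC replicate 3, while its non-LRC values were 8.09, 8.36 and 8.17. The third, 1422485_at, followed that second pattern, with 5.76 as its lowest and 7.15 as its highest value on the same arrays. All 3 are listed with the sequence AK004804. The group means differed by less than the SD in LRC on each (differences -0.24, SE 0.41, and 0.05, SE 0.38, for the other 2). That SD was larger than in non-LRC on all 3. On 1422486_a_at the difference was larger in size than the non-LRC SD of 0.14.

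Smad6, which competes with Smad4 for activated Smad1, had 1 probe set, 1422771_at, at 2.89, 2.39 and 2.37 in non-LRC and 3.71, 2.57 and 2.51 in LRC. It was below the array median on all 6 arrays and below the 25th percentile on 5. It was the 1 member probe set whose mean fell below the 40th percentile of all probe sets, 3.8. The difference was 0.38 (SE 0.38, 95% interval -0.52 to 1.29), and it was -0.007 without LRC replicate 1, the single array with a value above 3. At this level the Smad6 signal cannot be told from the floor of the array.

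Smad7, the inhibitory Smad of both branches, read 3.83, 4.94 and 4.41 in non-LRC and 4.73, 4.66 and 5.28 in LRC on its brighter probe set, 1423389_at. The groups overlapped, with a difference of 0.50 (SE 0.34, 95% interval -0.32 to 1.32), which was the largest of the 7 brightest probe sets. It was 0.22 without non-LRC replicate 1, the lowest array, and 0.77 without non-LRC replicate 2. The other probe set, 1443771_x_at, whose suffix marks probes that can cross-hybridize, read 2.33, 4.03 and 4.33 in non-LRC and 4.03, 4.35 and 3.81 in LRC. Its difference of 0.50 (SE 0.53) rested on non-LRC replicate 1 and was -0.12 without that array.

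**Figure D2:**
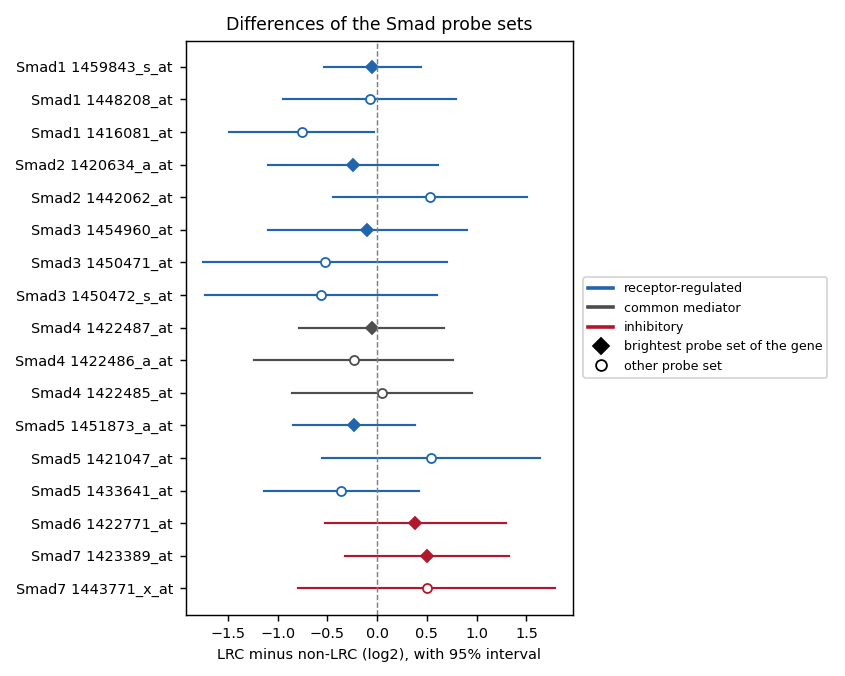
Difference in log2 expression (LRC minus non-LRC) of each Smad probe set with limma's 95% interval, coloured by role, with filled diamonds for the brightest probe set of each gene. The interval of 1416081_at (Smad1), -1.49 to -0.03, is the 1 of 17 that does not cross 0, and it is not adjusted for the number of probe sets tested.

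Receptor-regulated and inhibitory Smads were then set side by side. Of the 11 receptor-regulated probe sets 9 had a lower mean in LRC, with a median difference of -0.23. All 3 inhibitory probe sets had a higher mean, with a median of 0.50. Over all probe sets 44.7% had a lower mean in LRC, and the median was 0.04. The brightest probe sets gave the same split, with all 4 receptor-regulated genes lower (median -0.17) and both inhibitory genes higher (0.38 and 0.50). The classes also differed in level. Means over the 6 arrays ran from 4.79 to 8.71 for receptor-regulated probe sets and from 2.74 to 4.64 for inhibitory ones. The share over all probe sets is not matched for level, so role and level cannot be told apart here. No p-value is given for this split, because the genes were grouped with earlier results of these data known, and probe sets of 1 gene share their target.

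To see the split on each array, every gene was centred on its mean over the 6 arrays. The mean of the 4 receptor-regulated Smads minus the mean of the 2 inhibitory Smads was then 0.20, 0.08 and 0.62 in non-LRC replicates 1 to 3, and -1.0, 0.04 and 0.07 in LRC. These values did not overlap between groups, with LRC replicate 3 just below non-LRC replicate 2 (0.070 against 0.076). That depended on Smad6, whose signal lay near the floor of the array. With Smad7 alone as the inhibitory Smad the values were 0.68, -0.25 and 0.55 in non-LRC and -0.56, -0.05 and -0.36 in LRC, and the groups overlapped. With both inhibitory Smads the group means were 0.30 ± 0.28 in non-LRC and -0.30 ± 0.61 in LRC (SD, n = 3 each), a difference of -0.60, against -0.65 with Smad7 alone. Without LRC replicate 1 the difference with both was -0.24, and with the hybridization controls as a covariate -0.12. These controls were highest on LRC replicates 1 and 3, so that covariate partly follows the group. LRC replicate 1 had the lowest receptor-regulated mean (-0.47). Its inhibitory mean of 0.53 was the highest, but came from 0.97 for Smad6 and 0.09 for Smad7. Smad7 itself was highest on LRC replicate 3, at 0.64. In LRC replicate 2 the 3 classes lay between -0.08 and 0.03.

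**Figure D3:**
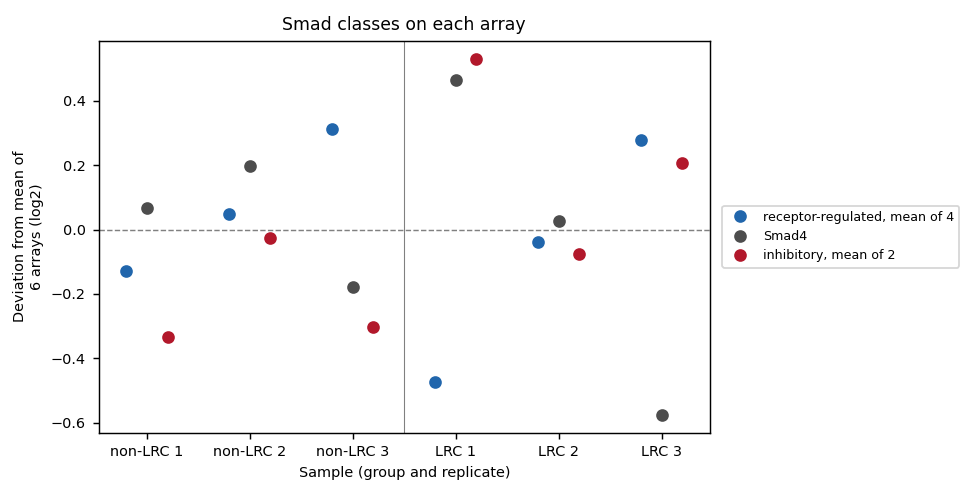
Deviation of each Smad class from its own mean over the 6 arrays (log2), by sample, with 1 point for the mean of the 4 receptor-regulated genes, 1 for Smad4 and 1 for the mean of the 2 inhibitory genes. LRC replicate 1 has the lowest blue point, at -0.47, and the highest red point, at 0.53, which averages 0.97 for Smad6, a gene near the floor of the array, and 0.09 for Smad7.

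Extreme values of the Smad probe sets lay most often on LRC replicate 1. That array held the lowest or the highest of the 6 values in 14 of 17 member probe sets (82.4%), against 47.9% of all probe sets. It was the lowest in 10 and the highest in 4. For LRC replicate 2 the count was 2 of 17 (11.8%, against 30.7% of all), and for LRC replicate 3 it was 6 (35.3%, against 32.9%). The SD was larger in LRC than in non-LRC in 12 of 17 (70.6%, against 61% of all). When single arrays were left out in turn, 8 of the 17 differences kept their sign in all 6 fits and 9 lost it at least once, 4 of them without LRC replicate 1. Among the 7 brightest probe sets, those of Smad5 (-0.41 to -0.09) and Smad7 (0.22 to 0.77) kept their sign.

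**Figure D4:**
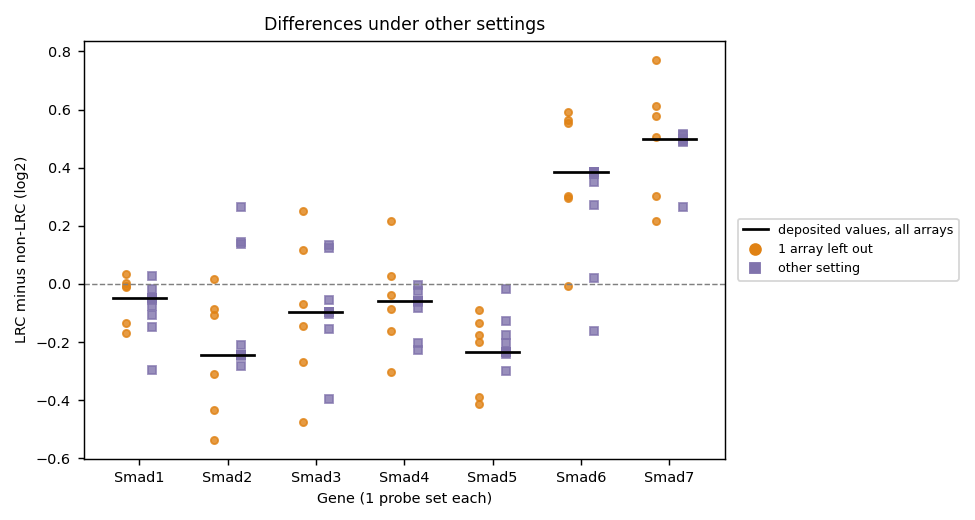
Difference in log2 expression (LRC minus non-LRC) of each Smad gene, by its brightest probe set unless the setting chooses otherwise, with a black line for all arrays as deposited, circles for fits without 1 array and squares for the other settings. The points of Smad5 stay below 0 and those of Smad7 above 0, while those of the other 5 genes lie on both sides.

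Other genes of the pathway were described from lists by role, each gene by its brightest probe set. None passed an adjusted p of 0.05, as for 0% of all 18193 genes. At an unadjusted p under 0.05 the share was 3.75% of all genes, and groups did not overlap in 8.32%, with LRC lower in 3.62% and higher in 4.71%. The median difference over all genes was 0.03. Skil, a corepressor that is also a target, stands in 2 lists.

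Upstream of the Smads, 15 ligands and proteins that store or bind ligands were measured. Of these 11 had a higher mean in LRC and 4 a lower one, with a median difference of 0.19. Over the 6 fits that each dropped an array that median was 0.01 to 0.14, and it was -0.10 with the hybridization controls as a covariate. The smallest p was that of Ltbp3, which binds latent TGF-beta. It read 10.31, 10.18 and 10.65 in non-LRC and 9.90, 10.07 and 9.75 in LRC, so that no LRC value reached the lowest non-LRC value (difference -0.47, SE 0.21). Among 3 further Ltbp3 probe sets 1 shared that sign. Ltbp1, a related protein, gave 0.28 (SE 0.20), with neither of its 2 other probe sets of that sign, and 0.16 without LRC replicate 1. Gdf11, a ligand of activin receptors, gave -0.45 (SE 0.41), and -0.06 without non-LRC replicate 1.

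Of 13 receptors 7 had a higher and 6 a lower mean in LRC, with a median of 0.04. Bmpr1a, a type I BMP receptor, read 5.62, 6.71 and 6.16 in non-LRC and 3.27, 4.90 and 5.75 in LRC (difference -1.52, SE 0.65). LRC replicate 3 lay above the lowest non-LRC array. The difference was -0.83 without LRC replicate 1, and 3 of 5 further Bmpr1a probe sets shared its sign. The activin type II receptors Acvr2a and Acvr2b, which pair with type I receptors for activin and some BMPs, separated the groups in opposite directions. Acvr2a gave -0.46 (SE 0.20), with its 1 other probe set of the same sign, and Acvr2b gave 0.56 (SE 0.24), with 1 of 2 of the same sign. With the hybridization controls as a covariate they gave -0.28 and 0.19.

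The enzymes that ubiquitinate, deubiquitinate or dephosphorylate Smads held 2 of 15 genes with an unadjusted p under 0.05, both lower in LRC, and 11 of 15 had a lower mean. The median was -0.25, but 0.007 without LRC replicate 1 and -0.53 without LRC replicate 2. Rnf111 encodes Arkadia, a ubiquitin ligase that marks Smad7 and the corepressors Ski and Skil for degradation. It read 8.74, 9.06 and 8.66 in non-LRC and 8.19, 8.18 and 7.97 in LRC, a 1.63-fold lower level (difference -0.71, SE 0.20, limma adjusted p = 0.998). The lowest non-LRC array thus lay above the highest LRC array. Usp15, a deubiquitinase that acts on receptor-regulated Smads, read 7.56, 7.25 and 7.53 in non-LRC and 6.14, 7.13 and 6.04 in LRC (difference -1.01, SE 0.33). Among 5 further Usp15 probe sets 1 shared that sign, and the covariate gave -0.49. Cul1, a scaffold of ubiquitin ligases, gave -0.56 (SE 0.34), and -0.27 without LRC replicate 3, and its groups overlapped.

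Anchors, corepressors and coactivators were 15 genes, with 11 at a lower mean in LRC and a median of -0.20. That median was -0.38 without non-LRC replicate 2 and -0.06 with the hybridization controls as a covariate. Pias4, a SUMO ligase that binds Smads, read 6.03, 5.77 and 5.92 in non-LRC and 6.53, 6.62 and 6.28 in LRC. Every LRC value was higher (difference 0.57, SE 0.19, limma unadjusted p = 0.023, adjusted p = 0.998), and 1 of 2 further probe sets shared that sign. Tgif1, a corepressor of Smad2 and Smad3, gave -1.33 (SE 0.68) with overlapping groups, and -0.76 without LRC replicate 1. Crebbp, a histone acetyltransferase that Smads recruit, gave -0.38 (SE 0.20), and -0.25 without non-LRC replicate 1. No LRC value of it reached the non-LRC range, and 2 of 3 further Crebbp probe sets shared its sign.

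Target genes, the readout of Smad activity among RNAs, numbered 19 measured. Of these 8 had a higher and 11 a lower mean in LRC, with a median of -0.03, and none separated the groups. That median was -0.18 with low probe sets left out and 0.10 with the hybridization controls as a covariate. With single arrays left out it ran from -0.11 to 0.07. Below the 25th percentile of the array on all 6 arrays lay 2 of the 19. Id1, a direct target of BMP-activated Smads, gave 0.19 (SE 0.20) and Id2 -0.23 (SE 0.50). Id3 gave -0.009 (SE 0.22) and Id4 -0.27 (SE 0.70). Cdkn1c, the gene of the cyclin-dependent kinase inhibitor p57, had the smallest p. It read 7.34, 7.58 and 7.01 in non-LRC and 8.36, 7.37 and 8.47 in LRC (difference 0.76, SE 0.35). LRC replicate 2 lay within the non-LRC range, and the difference was 0.21 with the hybridization controls as a covariate. Bambi, a decoy receptor that dampens the pathway, gave -0.79 (SE 0.46), or -0.22 with that covariate, and Ldlrad4, which hinders activation of Smad2 and Smad3, gave 0.23 (SE 0.19), or 0.35 without LRC replicate 3. The Id genes were named after their values were seen.

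**Figure D5:**
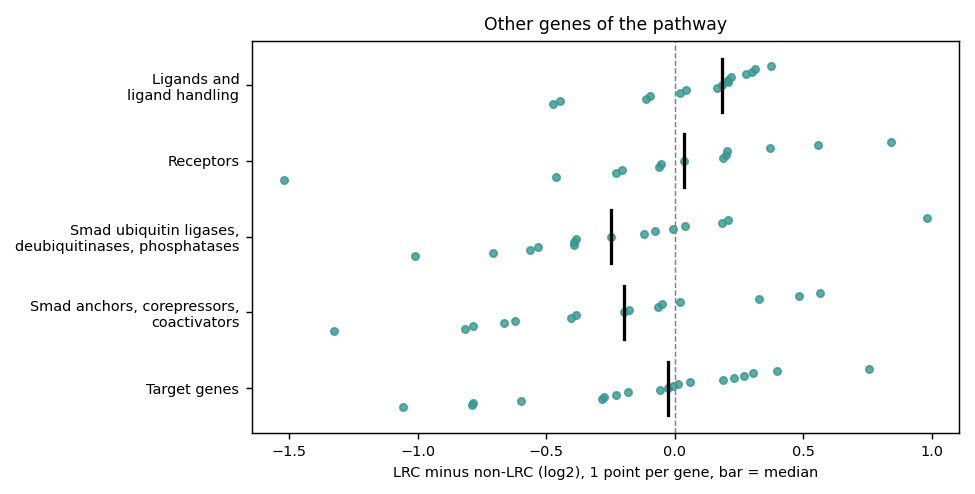
Difference in log2 expression (LRC minus non-LRC) of each gene in 5 lists of the TGF-beta and BMP pathway, with 1 point per gene and a black bar at the median of each list. The medians run from -0.25 for the enzymes acting on Smads to 0.19 for ligands.

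The profile of each Smad over the 6 arrays was also set against those of about 10915 other genes whose mean level was at or above the 40th percentile of genes. Likeness was the root mean square distance between log2 values centred on each gene's own mean, so a small value means a like profile. A gene that varies little lies near other such genes, so distances do not compare between members. The members' own profiles had a root mean square size from 0.15 for Smad1 to 0.48 for Smad3. The nearest genes were Fem1b and Mbnl2 for Smad1 (0.062 and 0.064), Larp7 and Slc38a2 for Smad2 (0.057 and 0.082), and Scube3 and Ypel5 for Smad3 (0.045 and 0.089). For Smad4 they were Atp6v1h and Pef1 (0.094 and 0.099), and for Smad5 Ncoa5 and Pak2 (0.048 and 0.084). For Smad6 they were Tnfsf13b and Plk3 (0.058 and 0.062), and for Smad7 Eml3 and Soga1 (0.064 and 0.115). No Smad was among the 2 nearest genes of another Smad, but Smad6 lay below the level limit and could not be one. With 2 places for so many candidates, this does not show whether Smads share profiles. With 6 arrays and so many candidates, close profiles are to be found for almost any gene.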

How the data were processed

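RNA of sorted cells was extracted with the PicoPure kit, put through 2 rounds of NuGEN WT-Ovation Pico amplification, biotin-labelled and hybridized to 1 array per sample, per the labels' protocols. The deposited values are log2 expression per probe set. The authors used RMA, per the submitters' processing notes, which give it no version. The base of the logarithm was read from the range of values; the software that ran RMA was not given in the sources used here. Arrays carry no read depth, and their number limits the precision. Columns of other samples numbered 0.

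Of 45101 probe sets 64 controls were left out. Probe sets with 1 symbol numbered 34945, with several 932 and with none 9160. Symbols were updated through gene identifiers to RefSeq on GRCm38.p6. LRC was set against non-LRC with limma 3.58.1 (R 4.3.3; functions lmFit and eBayes; no covariate), with Benjamini-Hochberg adjustment over all 45037 probe sets and a threshold of 0.05. The procedure was first tested on simulated data with known changes. Means carry SDs over 3 samples, and differences carry limma's standard errors. P-values measure only the spread between these samples.

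The probe set with the highest mean stood for a gene. The genes named were all member probe sets, the 3 genes of smallest p in each pathway list, the 2 nearest profiles per member, and from the marker lists Kit, Slamf1, Cd34, Cd48, Flt3 (difference -0.27, and 0.26 without non-LRC replicate 1) and any whose groups did not overlap. Members and lists were chosen with earlier results of these data known. List entries without a probe set of that symbol are not analysed here. Other settings tried were a repeated quantile normalization, median centring, array weights, a filter at the 40th percentile, robust or trended moderation, a replicate block, arrays left out, the mean of 18 hybridization controls as a covariate, and other choices of probe set or threshold.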

Additional observations from a re-analysis of the deposited data

How the results depend on the processing

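Limma called 0 probe sets under 16 other ways of fitting or choosing arrays and at an adjusted p of 0.1, with smallest adjusted p-values from 0.175 to 1. At an unadjusted p under 0.05 it called 1673. No Smad gene passed an adjusted p of 0.05 under any setting tried. The sign turned under at least 1 setting for Smad1, Smad2, Smad3, Smad4 and Smad6. With array weights Smad1 gave 0.0285 and Smad3 0.12. With the hybridization controls as a covariate Smad2 gave 0.27, Smad3 0.13 and Smad6 -0.16, and with LRC replicates 1 and 3 left out together, which leaves 1 LRC array assumed to vary like the others, Smad2 gave 0.14. The controls were highest on those LRC replicates, so the covariate partly follows the group. The mean of all probe sets gave 0.14 for Smad2. With single arrays left out the ranges were -0.17 to 0.0347 for Smad1, -0.54 to 0.0154 for Smad2, -0.48 to 0.25 for Smad3, -0.30 to 0.22 for Smad4 and -0.00681 to 0.59 for Smad6. The cause was not tested. Smad5 and Smad7 kept their sign in all 17 settings, but Smad5 was at -0.0183 with the mean of all probe sets. Its probe set 1421047_at had the opposite sign, at 0.54. Trended or robust moderation and the replicate block could not change a difference. The filter and the omission of _x_at and _s_at probe sets kept the same probe sets for these genes. Such settings say nothing about the sign. The receptor-regulated minus inhibitory difference ran from -0.78 to -0.12 over 15, among them Smad7 alone as the inhibitory Smad, chosen after seeing the data. Median centring, which shifts both classes alike, and the replicate block are also among the 15 and could not change that difference. Smad6 had no value under the filter on low probe sets. The replicate block cannot change a difference, because each replicate number holds 1 LRC and 1 non-LRC array. The values of -0.05 for Smad1 and 0.50 for Smad7 were thus fixed in advance under it. Only the p-values could differ, and limma's lowest adjusted p was 0.929. Same-numbered arrays correlated at 0.080, 0.141 and 0.081 in their deviations from the group means, and each LRC array correlated best with its own number. Such deviations cancel out within a group, so each LRC array must have some positive best match. These small values therefore do not settle whether arrays were paired, which the labels do not say.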
